A study of Homo sapiens with 2 samples.

Results

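The genes described here are 10 transcription factors of blood cells: SPI1, CEBPA, CEBPB, CEBPD, CEBPE, CEBPG, IRF8, MYB, GFI1 and IKZF1. They were taken by name, and every probe set that the array annotation assigns to one of them alone was used, which gave 21 of 41091 such probe sets and 10 of 19775 genes. A pair of expression profiles was compared. The first was of MEG-01 cells, a megakaryoblastic line of chronic myeloid leukemia (CML), transduced with a lentivirus for GAS2DN, a truncated and dominant negative form of growth arrest specific 2 (GAS2). The second was of MEG-01 cells transduced with the Venus control lentivirus, which carries only the yellow fluorescent marker. In both vectors the insert was driven by a spleen focus forming virus promoter, and the fluorescent cells were sorted before RNA extraction. Equal amounts of RNA from 3 extracts per condition were pooled and hybridised to 1 Affymetrix Human U133 Plus 2.0 array, so that neither condition had a replicate array and no test between them was possible.

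These factors direct the choice between the myeloid and other blood lineages. PU.1, the product of SPI1, together with the C/EBP family and IRF8, switches on genes of granulocytes and monocytes, and its level is kept low in the megakaryocyte and erythroid lineages, where GATA1 opposes it. MYB keeps progenitors immature and dividing, GFI1 is a repressor that favours granulocytes over monocytes, and IKZF1 encodes Ikaros, a zinc finger factor of lymphoid and early progenitor cells. MEG-01 cells are of the megakaryocyte lineage, so the myeloid factors are read here in cells whose lineage normally keeps some of them low.

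The signal of 3 factors, SPI1, IRF8 and CEBPE, was over 4-fold higher in GAS2DN than in Venus cells, and the Venus signal of each lay below the median of its array. The other 7 factors were bright on both arrays, and their 13 bright probe sets had ratios of GAS2DN over Venus between 0.887 and 1.48. The signals are the deposited MAS5 values in arbitrary units, with a median of 69.1 on the GAS2DN array and 55.6 on the Venus array. As probe sets bind their targets unequally well, a signal is compared between the 2 arrays rather than between genes. Percentiles, signal bins and sums over genes do place different probe sets on 1 scale and are descriptions only. A probe set was called eligible when its signal reached the median of at least 1 of the arrays, which held for 16 of the 21 probe sets and for at least 1 of each gene.

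**Figure D1:**
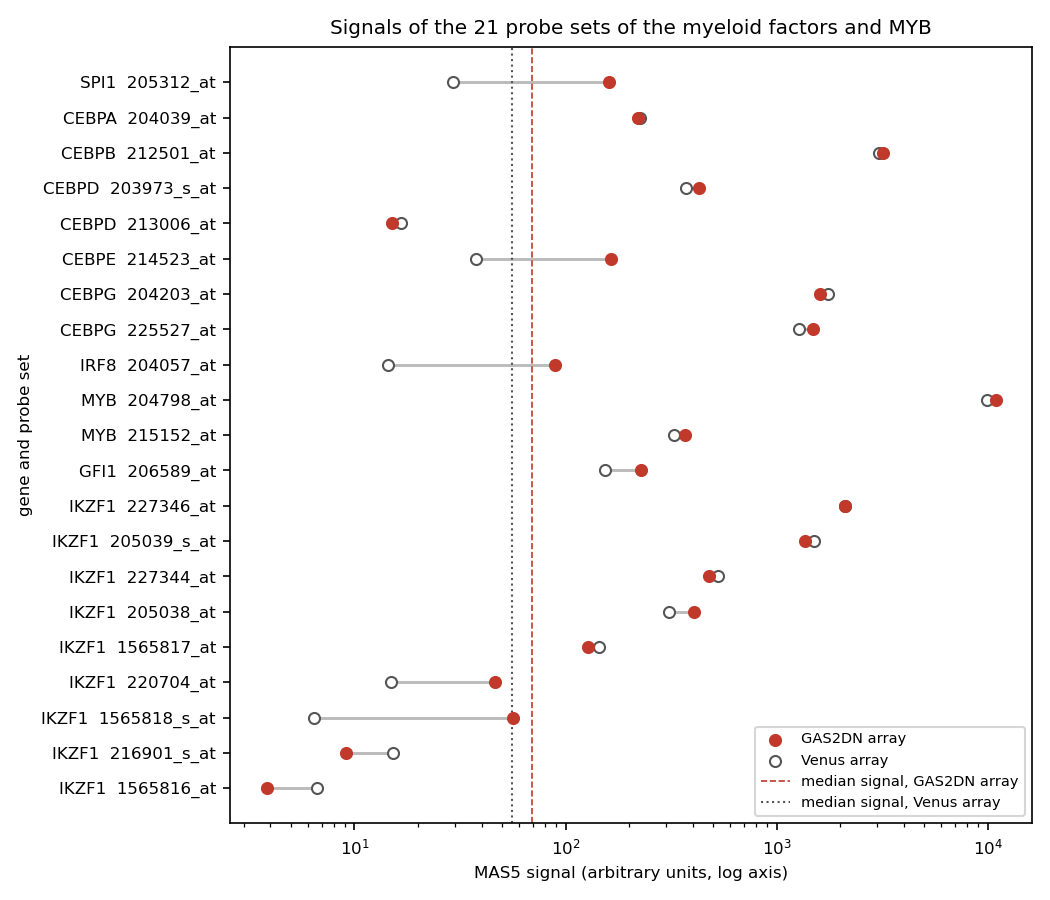
MAS5 signal (log axis) of each of the 21 probe sets on the GAS2DN array (red) and the Venus array (open circles), with the median signal of each array as a vertical line. Only in SPI1, CEBPE and IRF8 does the GAS2DN signal lie above its median with the Venus signal below, and the brighter probe sets of the other genes have nearly overlapping circles.

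SPI1, the gene of the ETS factor PU.1, had a signal of 160.8 in GAS2DN cells and 29.4 in Venus cells in its single probe set, 205312_at. The log2 ratio was 2.45, a ratio of 5.46. On its own array this signal stood at percentile 64.9 in GAS2DN and at percentile 36.9 in Venus cells. When a signal below the array median was raised to that median, the ratio was 2.89. As the 2 medians differ, this step gives a probe set below both of them a ratio of 1.24. A probe set below the median only in Venus cells therefore cannot fall under 1.24.

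IRF8, an interferon regulatory factor that acts with PU.1 in monocytes and dendritic cells, had 89.4 in GAS2DN cells and 14.4 in Venus cells in 204057_at, a log2 ratio of 2.63. This was the dimmest of the 3 readings, and with the low signal raised the ratio of 6.21 became 1.61. CEBPE, the C/EBP factor of late granulocyte maturation and of secondary granules, had 164.5 in GAS2DN cells and 37.5 in Venus cells in 214523_at. Its log2 ratio was 2.13, and its ratio of 4.39 became 2.96 with the low signal raised. None of the 3 genes had a second probe set with which the reading could be compared.

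These 3 were the only eligible probe sets of the 10 factors over 3-fold in either direction, 3 of 16 higher and 0 lower, while 4.93% of all eligible probe sets were over 3-fold higher and 3.34% over 3-fold lower. At a 2-fold threshold the count of the factors was again 3 higher and 0 lower, against 8.47% and 6.05% of all eligible probe sets. Of all calls over 3-fold 59.6% were higher, and 49.5% when the arrays were scaled by loess or to equal quantiles. The 3 probe sets were eligible only through their GAS2DN signal and therefore had to be higher in GAS2DN cells, and of the 2180 probe sets of the array in this position 55.0% were over 3-fold higher. Large ratios were common among dim probe sets. In 10 bins of equal size by mean log2 signal, 24.1% of the probe sets in the bin of IRF8 were over 3-fold higher, 8.57% in that of SPI1 and 2.43% in that of CEBPE. SPI1 lay near the top of its bin and CEBPE near the bottom of the next, with the border at 6.25. The values of these 2 bins therefore do not set the 2 genes apart.

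The spread between eligible probe sets of the same gene is the only repeated measure that 2 arrays offer. Its SD on the log2 scale was 2.18 in the bin of IRF8, 1.15 in that of SPI1 and 0.78 in that of CEBPE. It rests on 579 of the 4109 probe sets in the bin of IRF8, 1728 of 4109 in that of SPI1 and 2967 of 4109 in that of CEBPE. In the bin of IRF8 a probe set was eligible only if its 2 signals differed, so the filter itself widens the SD there. To a lesser degree this holds in the bin of SPI1. The SD includes true differences between transcripts of a gene and contains no variation between cultures.

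**Figure D2:**
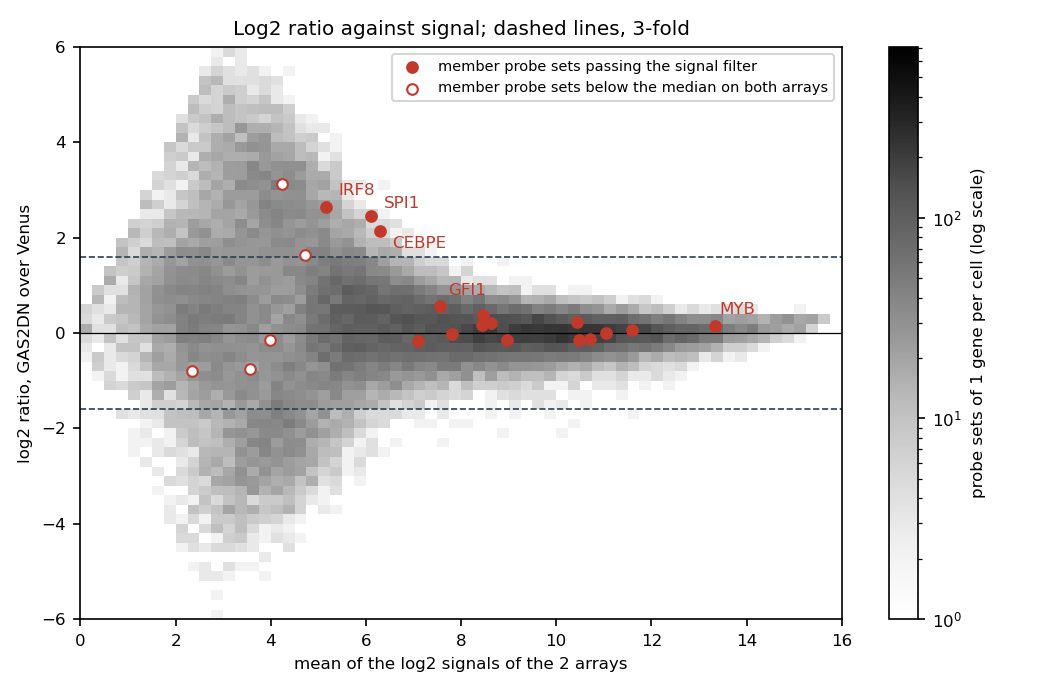
Log2 ratio of GAS2DN over Venus against the mean log2 signal of the 2 arrays. Grey cells count all 41091 probe sets of 1 gene on a log scale (ratios beyond 6 are drawn at 6), filled red points are the 16 eligible probe sets of the 10 factors and open points the 5 others. SPI1, CEBPE and IRF8 lie above the 3-fold line in the part of the plot where ratios scatter widely, and the other filled points lie near 0.

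The remaining C/EBP genes encode basic leucine zipper factors that pair with CEBPE and with each other. CEBPB, which drives emergency granulopoiesis and macrophage genes, had 3172 in GAS2DN and 3048 in Venus cells, a log2 ratio of 0.06 that was -0.0016 after centring. CEBPA, which is needed to form granulocyte and monocyte progenitors, had 221 in GAS2DN and 225 in Venus cells, a log2 ratio of -0.03 that turned to 0.05 when the array median was added to each signal. The difference in both genes was far below the spread between probe sets, which had an SD of 0.44 in the bin of CEBPB and 0.64 in that of CEBPA.

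CEBPD, induced by inflammatory signals, had 428 in GAS2DN and 371 in Venus cells in its bright probe set, 203973_s_at, a log2 ratio of 0.21. Its second probe set, 213006_at, was below the median on both arrays with 15.0 and 16.6 in GAS2DN and Venus cells. CEBPG, a short partner that lacks an activation domain, was read by a pair of bright probe sets. The first, 204203_at, had 1608 in GAS2DN and 1743 in Venus cells. The second, 225527_at, had 1494 in GAS2DN and 1281 in Venus cells. Their log2 ratios of -0.12 and 0.22 differed in sign, so that no direction can be given for CEBPG. CEBPA and CEBPG are neighbours on chromosome 19 with no other protein-coding gene between them. The log2 ratios of their probe sets lay between -0.12 and 0.22.

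Of the 3 factors with more than 1 eligible probe set, MYB was the one whose probe sets differed least. The main probe set, 204798_at, had 10883 in GAS2DN and 9870 in Venus cells, and the second, 215152_at, had 366 in GAS2DN and 327 in Venus cells. The log2 ratios were 0.14 and 0.16, both positive but small beside an SD of 0.44 and 0.64 between probe sets in their bins. GFI1 had 229 in GAS2DN and 153.9 in Venus cells in 206589_at, a log2 ratio of 0.57. This was the highest ratio among the 13 bright probe sets and still within the SD of 0.64 between probe sets of similar signal. Of all probe sets of the array that reached the median on both arrays 3.36% differed over 2-fold in either direction, and none of the 13 bright ones of the factors did.

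IKZF1 was covered by 9 probe sets, more than any other of the factors. The brightest, 227346_at, had 2113 in GAS2DN and 2108 in Venus cells. The next, 205039_s_at, had 1355 in GAS2DN and 1507 in Venus cells, and 227344_at had 480.03 in GAS2DN and 528 in Venus cells. These 3 lay between -0.15 and 0.00 on the log2 scale. Of the other eligible ones 205038_at had 405 in GAS2DN and 309.6 in Venus cells, a log2 ratio of 0.39, and 1565817_at had 128 in GAS2DN and 144 in Venus cells, a log2 ratio of -0.17. The 5 eligible probe sets were thus 2 higher and 3 lower.

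The 4 dim probe sets of IKZF1 scattered far more. They had log2 ratios of 3.13 in 1565818_s_at, 1.63 in 220704_at, -0.75 in 216901_s_at and -0.79 in 1565816_at, and none of their signals reached the median of its array. The first of these had 56.2 in GAS2DN and 6.40 in Venus cells. It was designed on the same sequence record as 1565817_at and 1565816_at, so that 3 probe sets of 1 record gave log2 ratios of 3.13, -0.17 and -0.79. In the array as a whole 38.5% of the probe sets that reached neither median were over 3-fold in one direction or the other, and of the 5 such probe sets of the factors 2 were, both of IKZF1 and both higher.

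**Figure D3:**
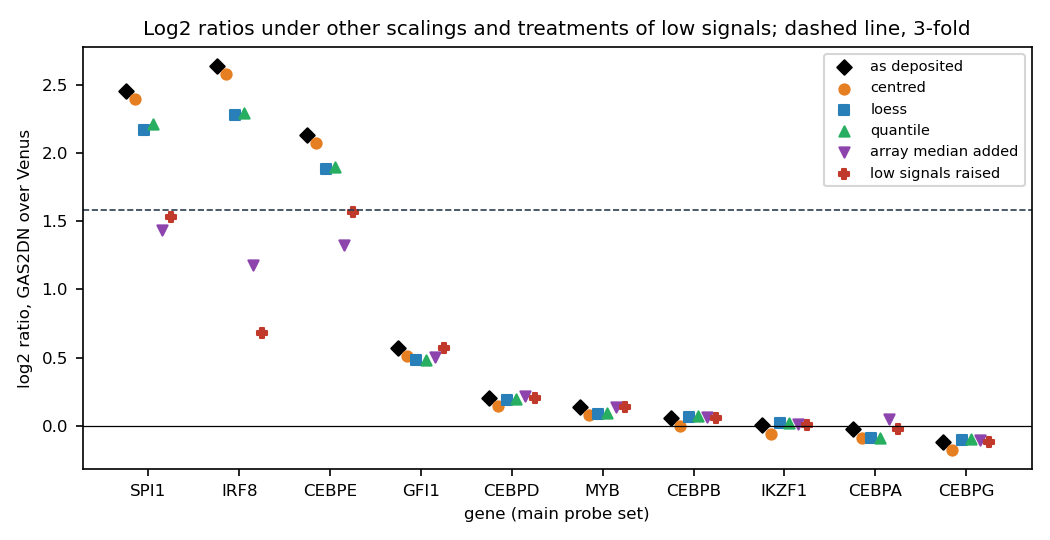
Log2 ratio of GAS2DN over Venus in the main probe set of each factor, with signals as deposited (black) and under 5 other scalings or treatments of low signals. SPI1, IRF8 and CEBPE fall under the dashed 3-fold line when low signals are raised to the array median or the median is added. IRF8 falls to 0.68 when low signals are raised. Under these 2 treatments, under quantile scaling and as deposited the 3 genes had to stay above 0, as only their GAS2DN signals reached the median. Centring, which moved SPI1 from 2.45 to 2.39, was too small a shift to change this, as such genes start at 0.31 or more. The 3 genes are also above 0 under loess scaling, and the other 7 genes move little.

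The region upstream of the start site was compared for the factors, as the CEBPE signal was over 3-fold higher in GAS2DN cells while those of MYB and CEBPB were close to equal. RefSeq windows (GRCh38.p14) from 250 bases before to 50 after a start site were at hand for 8 of the 10 genes, 15 windows in all, and not for SPI1 and CEBPD. The last 150 bases before the start are printed for these 3 genes in 5′ to 3′ direction, with the letters GAGGAA, a core that PU.1 and other ETS factors bind, in capitals where found on either strand.
CEBPE, chr14:23119256-23119405, minus strand: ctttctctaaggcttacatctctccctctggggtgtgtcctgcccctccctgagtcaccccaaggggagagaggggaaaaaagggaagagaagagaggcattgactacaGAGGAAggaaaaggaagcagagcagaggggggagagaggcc
MYB, chr6:135181158-135181307, plus strand: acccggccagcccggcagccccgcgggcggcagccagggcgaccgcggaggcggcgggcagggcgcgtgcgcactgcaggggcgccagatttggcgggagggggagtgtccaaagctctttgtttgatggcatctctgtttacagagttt
CEBPB, chr20:50190433-50190582, plus strand, the first of its 2 starts: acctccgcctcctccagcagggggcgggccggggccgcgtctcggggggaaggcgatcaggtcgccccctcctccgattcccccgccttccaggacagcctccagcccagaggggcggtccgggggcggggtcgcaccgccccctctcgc

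Of the 3 stretches printed only that of CEBPE holds GAGGAA. The corresponding stretch of 1 start of GFI1 holds it too, as does that of 1 start of IKZF1, and GFI1 and IKZF1 were not over 2-fold in an eligible probe set. Both windows of IRF8 lie inside the gene rather than at its outermost start, and neither holds the letters. Over the full windows it was present in 5 of 15, those of CEBPE, MYB, GFI1 and IKZF1, while 27.9% of all 35116 windows of the table hold it. The letters TTNNGNAA, a loose form of the C/EBP site, were in 3 of the 15 windows, of GFI1 and IKZF1, and in 36.8% of all windows. The letters AACNGT, a form of the MYB site, were in 1 of the 15, of IKZF1, and in 21.7% of all windows. Both strands were searched, the 3 stretches shown hold neither TTNNGNAA nor AACNGT, and a match is only a description of the sequence.

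Genes that the factors act on and act with were then read by the main probe set, the brightest of each gene leaving out those ending in _x_at where another existed. The main probe set was eligible in 13127 genes, called measured, with a median log2 ratio of 0.06. Of these 56.3% were higher in GAS2DN cells, against 8 of the 10 factors. Over 2-fold higher were 7.88% of them and over 2-fold lower 4.43%, against 3 and 0 of the 10 factors, whose median was 0.17. The 3 were SPI1, IRF8 and CEBPE, which were eligible only through their GAS2DN signal and so had to be higher. The 7 factors above the median on both arrays had a median of 0.06, against 0.05 for all such genes. As the RNA is from bulk cells, a change in the share of cells that express a gene and a change in RNA per cell cannot be told apart.

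Of 20 granule, antimicrobial and oxidase genes that PU.1 and C/EBP factors activate, 10 were measured, 8 with a log2 ratio above 0 and 2 below, and 2 over 2-fold higher, with a median of 0.22. These 2, S100A8 and LTF, were eligible only through their GAS2DN signal and so had to be higher. With low signals raised their ratios were 1.56 and 1.49, and the 8 genes above the median on both arrays had a median log2 ratio of 0.13. S100A8, a subunit of calprotectin, had 87.0 in GAS2DN and 4.66 in Venus cells, a log2 ratio of 4.22, but its second probe set had 10.8 in GAS2DN and 16.6 in Venus cells. LTF, lactoferrin of the secondary granules that CEBPE controls, had 82.9 in GAS2DN and 37.7 in Venus cells, a log2 ratio of 1.14. LCN2, another secondary granule gene, had 1661 in GAS2DN and 1364 in Venus cells, a log2 ratio of 0.28. The 2 lower genes, LYZ and CYBB, were above the median on both arrays, with log2 ratios of -0.09 and -0.21. Their second eligible probe sets had 0.42 and -1.02. CAMP and MMP8, of the same granules, were not measured, with CAMP at 17.6 in GAS2DN and 49.8 in Venus cells. Primary granule genes were mostly dim on both arrays. PRTN3, AZU1, MPO and ELANE were below the median on both. MPO, myeloperoxidase, reached at most 25.0 in GAS2DN and 16.4 in Venus cells, and ELANE, neutrophil elastase, 14.2 in GAS2DN and 4.55 in Venus cells. CTSG, cathepsin G of the same granules, was above the median on both arrays with 251 in GAS2DN and 129 in Venus cells, a log2 ratio of 0.96.

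Receptor genes under the same factors were measured in 6 of 13, 4 higher and 2 lower, with a median log2 ratio of 0.24. CSF1R, the receptor of M-CSF and a classical PU.1 target, had 91.7 in GAS2DN and 67.6 in Venus cells, a log2 ratio of 0.44. ITGAM, the integrin CD11b, had 79.2 in GAS2DN and 49.5 in Venus cells, a log2 ratio of 0.68, and reached the median only in GAS2DN cells. CSF3R, the G-CSF receptor, went the other way with 21.4 in GAS2DN and 169.0 in Venus cells, a log2 ratio of -2.98, although its other probe set had 59.1 in GAS2DN and 23.2 in Venus cells. The main probe set of CSF3R reached the median only in Venus cells, and with the low signal raised its ratio was 0.41. CD14, the monocyte marker, was dim with 4.48 in GAS2DN and 5.13 in Venus cells.

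Among 10 genes that MYB activates, 9 were measured, 6 higher and 3 lower, with a median log2 ratio of 0.14 that was -0.13 with the _s_at and _x_at probe sets left out. MYC had a log2 ratio of 0.12 and KIT, the stem cell factor receptor, 0.33. BCL2, an inhibitor of apoptosis, had 0.30 in its main probe set. Its 3 other probe sets had 3.02, 1.65 and 1.49, all eligible only through their GAS2DN signal and therefore bound to be higher. CD34, the progenitor marker, had 43.1 in GAS2DN and 86.6 in Venus cells, a log2 ratio of -1.01, and CXCR4, the chemokine receptor, 26.3 in GAS2DN and 65.3 in Venus cells, a log2 ratio of -1.31. The GAS2DN signals of both were below the array median. The 2 dim probe sets of CXCR4 had log2 ratios of 1.13 and -3.54. Genes that GFI1 represses were measured in 8 of 11, 6 higher and 2 lower, none over 2-fold, with a median of 0.21 that was -0.14 without the same probe sets. The highest of them was ID1, an inhibitor of basic helix-loop-helix factors, with 13130 in GAS2DN and 9415 in Venus cells, a log2 ratio of 0.48.

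Of 19 relatives of the factors in the same protein families 16 were measured, with 1 over 2-fold and a median log2 ratio of 0.01 that was -0.05 after centring and -0.03 after loess. This was IRF5, a relative of IRF8 in macrophage activation, with 416 in GAS2DN and 127 in Venus cells in its main probe set, both above the array medians, a log2 ratio of 1.71. A second eligible probe set of IRF5 had 94.5 in GAS2DN and 113.6 in Venus cells, a log2 ratio of -0.27. GFI1B, the relative of GFI1 in megakaryocytes and erythroid cells, had 5273 in GAS2DN and 5160 in Venus cells. Of 22 partners and cofactors 21 were measured, 10 higher and 11 lower, none over 2-fold, with a median of -0.01. GATA1, which opposes PU.1, had 1516 in GAS2DN and 1617 in Venus cells. TRIB1 and TRIB2, which lead the C/EBPα protein to degradation, had log2 ratios of -0.11 and -0.18.

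**Figure D4:**
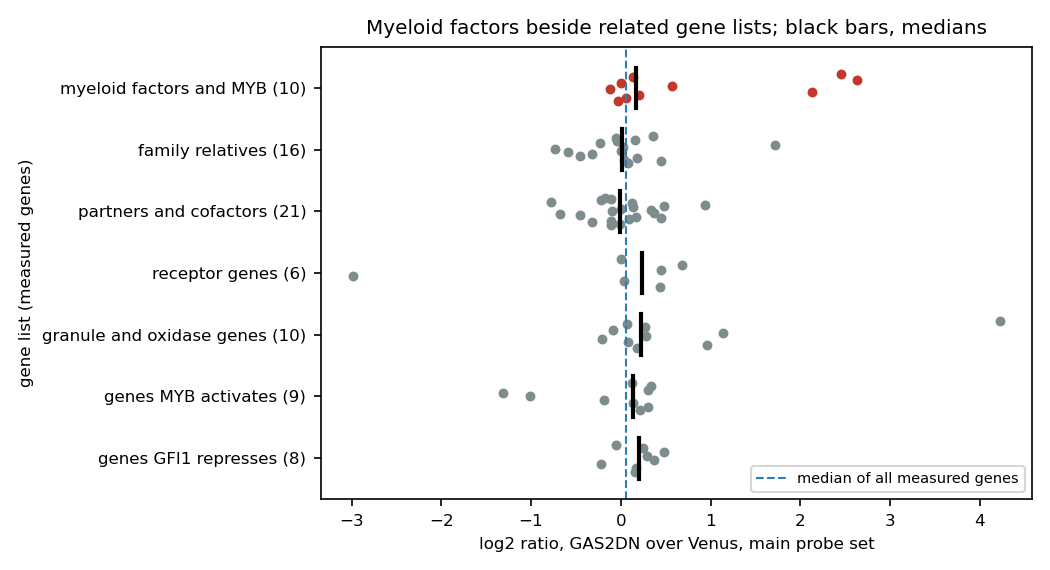
Log2 ratio of GAS2DN over Venus in the main probe sets of the measured genes of each list, with the number measured in brackets, black bars for the list medians and a dashed line for the median of all measured genes, 0.06. SPI1, IRF8 and CEBPE stand apart to the right among the 10 factors, and the medians of the 6 other lists lie between -0.01 and 0.24.

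Markers of the cells were read beside these values. For comparison, 56.3% of all measured genes were higher in GAS2DN cells, with a median log2 ratio of 0.06. Of 14 megakaryocyte genes 9 were measured, 7 higher and 2 lower, with a median log2 ratio of 0.37. The summed signal, which the brightest probe sets dominate, was 24975 in GAS2DN and 24632 in Venus cells. FLI1, an ETS factor of the lineage, was lower in its main probe set with 6806 in GAS2DN and 10408 in Venus cells, a log2 ratio of -0.61, while its next 2 probe sets by signal had -0.0020 and -0.03. ITGA2B, the platelet integrin subunit of the line, had 9238 in GAS2DN and 7149 in Venus cells, while the platelet chemokines PF4 and PPBP were below the median on both arrays. Of 11 erythroid genes 7 were measured, 4 higher and 3 lower, with a median log2 ratio of 0.30 and a summed signal of 3610 in GAS2DN and 2757 in Venus cells. Among them the anion exchanger SLC4A1 had a log2 ratio of 3.56 in its main and -3.65 in a dimmer probe set, and the globins HBM and HBE1 had 1.50 and -2.19. The globin HBB had -0.87 in its main probe set. Its far brighter probe sets ending in _x_at had log2 ratios between 0.30 and 0.56 and are not in the sum. Of 11 lymphoid genes 6 were measured, 5 higher and 1 lower, with a median log2 ratio of 0.41 and a summed signal of 644 in GAS2DN and 527 in Venus cells. The T cell antigens CD5 and CD2 had log2 ratios of 0.83 and 0.66 and the B cell antigen MS4A1 0.59, while CD79A and CD7 had 0.22 and 0.07. PAX5, the B cell factor, had -2.42 in its main and 2.53 in a dimmer probe set. Dimmer probe sets of CD5 and CD79A had -1.54 and -1.04, and a brighter one of CD7 ending in _x_at had 1.03. The measured granule and receptor genes summed to 11563 and 3201 in GAS2DN cells, against 10342 and 2868 in Venus cells. Of 8 genes of fibroblasts or of the cells used to package the virus only COL1A2 was measured, with 111.1 in GAS2DN and 40.99 in Venus cells. Probe sets ending in _x_at, which were not used as main ones, also reached the median for DCN, with 130.8 and 108.6 in GAS2DN cells, against 58.6 and 56.0 in Venus cells. One of COL1A1 had 402 in GAS2DN and 284 in Venus cells. Of the marker genes named, SLC4A1, HBM, MS4A1 and COL1A2 reached the median only in GAS2DN cells in their main probe sets, and so had to be higher there. PAX5, HBE1 and HBB reached it only in Venus cells. GAS2 itself had 34.7 in GAS2DN and 24.3 in Venus cells in 1 dim probe set, whose place relative to the truncation is not given in the sources used here. The part of any of these in the values of the factors was not tested.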

How the data were processed

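RNA was pooled from 3 extracts per condition and hybridised to 1 array each. The authors deposited log2 MAS5 signals (the submitters' processing notes name MAS5, with no version), which were converted to linear signals. The 2% trimmed mean was 500.1 on both arrays, and no detection calls were used. Of 54675 probe sets 62 were controls. Of the others, 41091 are annotated to 1 gene, 1801 to several and 11721 to none. For 41037 of those annotated to 1 gene the symbol was taken by gene identifier from a RefSeq table of GRCh38.p14, whether or not it changed. Eligible probe sets numbered 24947. With 1 array per condition there is no error of a ratio and no test; the number of arrays sets the limit of precision.

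The factors and gene lists were chosen with earlier results of these data known. Named were all factors, GAS2 and, per list, the 2 highest and 2 lowest measured genes over 2-fold; other genes were named after their values were seen. Listed genes with no probe set of their own were not analysed here. Alternatives changed the filter, the scaling (centring, loess with span 0.2 and 3 iterations, quantile), the low signals and the step from probe sets to genes. The ratios without scaling and those after loess and quantile scaling were tested on simulated data, and the other alternatives were not. Python 3.11.15, numpy 2.4.6, pandas 2.3.3, statsmodels 0.14.6 and matplotlib 3.10.9 were used.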

Additional observations from a re-analysis of the deposited data

How the results depend on the processing

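The count of 3 probe sets over 3-fold higher became 0 when both signals had to reach the median, 0 when low signals were raised to the array median, 0 when the median was added to every signal and 5 without a filter. At 2-fold the count of 3 became 0 when both signals had to reach the median, 2 when low signals were raised and 5 without a filter. Under centring, loess and quantile scaling both counts were 3. No probe set of the factors passing the filter was over 2-fold lower under the alternatives run. The log2 ratio of SPI1 ranged from 1.43 to 2.45 over its 8 alternatives, that of CEBPE from 1.33 to 2.13 and that of IRF8 from 0.68 to 2.63, and none gave a value when both signals had to reach the median. Those of CEBPA, CEBPB, CEBPG and IKZF1 changed sign in at least 1 alternative and stayed within 0.18 of 0. The median of the 10 factors ranged from 0.06 to 0.18. Of the lists, the medians of the family relatives, the partners, the genes of MYB and the genes of GFI1 changed sign in at least 1 alternative, with lowest values of -0.05, -0.11, -0.13 and -0.14. The dim Venus signals of SPI1, IRF8 and CEBPE limit what can be said of the size of their ratios. No paired analysis was possible because each condition has 1 array.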
